A study of Mus musculus with 5 samples.

Results

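Heterogeneous nuclear ribonucleoproteins (hnRNPs) are proteins that coat newly made transcripts and act in splicing, export, translation and decay of mRNA. This account covers m6A on the mRNAs that encode 10 of them in mouse embryonic stem cells (mESCs), namely Hnrnpa0, Hnrnpa1, Hnrnpa2b1, Hnrnpa3, Hnrnpab, Hnrnpc, Hnrnpd, Hnrnpf, Hnrnpk and Hnrnpu. Members were the called positions on exons of these genes, on the strand of the call, in GENCODE M21 (mm10). They came to 4020 of 471848 positions in the METTL3 inhibition dataset and 3147 of 195787 in the Mettl5 dataset. In each dataset 9 of the 10 genes were covered, and Hnrnpa3 had no covered position in either. A position was taken as an m6A site if more than 25 valid calls covered it in every library of its dataset and its level, the m6A calls as a percentage of valid calls, was 25% or more in at least 1 library. By this rule 19 of 6201 sites of the METTL3 inhibition dataset and 15 of 1886 sites of the Mettl5 dataset were on hnRNP genes.

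The study sequenced native mRNA on nanopores to ask whether METTL5, which methylates ribosomal RNA, also methylates mRNA, and first tested the calls with STM2457, an inhibitor of METTL3. The METTL3 inhibition dataset had 1 library of cells treated with 30 μM STM2457 for 48 h and 1 library of cells given 0.025% v/v DMSO. The Mettl5 dataset had 1 WT library and 1 library from each of 2 Mettl5-KO clones made in an earlier study, and both clones were compared with the same WT library. All cells were grown on gelatin in serum with LIF, with 2i inhibitors added for maintenance. Both DMSO and STM2457 cells were E14 mESCs with a homozygous FKBP12 F36V knock-in at the C terminus of Mettl3, which was not induced. Their other modifications were the reporters Zscan4::mCherry-PEST and 2C::3xtbGFP-PEST and a Dox-controlled APOBEC1-YTH-HA-IRES-tdiRFP, also not induced. The batch label was one value for the METTL3 inhibition dataset and another for the Mettl5 dataset, so dataset, cell line and batch cannot be told apart.

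On mRNA, METTL3 and its partner METTL14 transfer a methyl group to the amino group of adenosine while the transcript is being made, which gives m6A. The adenosine chosen is usually the central A of a 5-base sequence called DRACH, in which D stands for any base but C, R for a purine and H for any base but G. It is found mainly in long exons and near stop codons, away from exon junctions. Some hnRNPs have been described as proteins that bind methylated RNA or RNA opened by m6A, among them the products of Hnrnpa2b1 and Hnrnpc. The values here are about methylation of the hnRNP mRNAs themselves and not about binding by the proteins.

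The libraries held from 17897440 to 71574467 valid calls with a median coverage from 45 to 64 per position, and from 8.31% to 9.15% of calls in a library failed the confidence filter. Of 10 genes typical of embryonic stem cells, 10 were covered in the METTL3 inhibition dataset and 8 in the Mettl5 dataset, where Klf4 and Esrrb were not, and 0 of 10 genes of other cell types were covered in either. Mettl5 itself had 0 covered positions, so the knockout label was not checked on its target here. The exact binomial (Clopper-Pearson) 95% intervals given below cover counting error only. For calls summed over positions, the same read can count more than once, so those intervals may be too narrow.

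The sequences below show the called A in the middle of 21 bases of the GENCODE M21 transcript, written 5′ to 3′ on the mRNA strand, with capitals for the called base and the 2 bases on each side. Bases are counted from 1 at the start of the transcript. The first 6 are DRACH sites that carried the highest levels in the coding sequence or 3′ UTR of their gene, together with the neighbours of the Hnrnpa0 site that kept most of its level after STM2457.
Hnrnpa0 base 1346, 3′ UTR, chr13:58127201-58127221, minus strand: tcattgatGGACTctattttt
Hnrnpa0 base 1301, 3′ UTR, chr13:58127246-58127266, minus strand: ctgaaggtGGACTcggcccca
Hnrnpa0 base 1371, 3′ UTR, chr13:58127176-58127196, minus strand: tattacttGGACCttggtcgt
Hnrnpa0 base 347, coding, chr13:58128200-58128220, minus strand: acgctgacGGACTgcgtggtg
Hnrnpa1 base 1380, 3′ UTR of exon 11, chr15:103244407-103244427, plus strand: aaactccaGGACTgtatttgt
Hnrnpf base 1612, coding, exon 3, chr6:117924820-117924840, plus strand: gatacataGAACTcttcctga
The next 4 are the Hnrnpu site closest to an exon junction, the 2 sites of the METTL3 inhibition dataset outside a DRACH sequence, and the Hnrnpa0 site with the largest shared difference in the Mettl5-KO clones.
Hnrnpu base 2647, 3′ UTR of exon 14, chr1:178329326-178329346, minus strand: aataaaacGAACTgatacata
Hnrnpu base 2725, 3′ UTR of exon 14, chr1:178329248-178329268, minus strand: acattccaCAAGAggaagtgc
Hnrnpab base 2046, 3′ UTR of exon 7, chr11:51600414-51600434, minus strand: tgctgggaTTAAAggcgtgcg
Hnrnpa0 base 2000, 3′ UTR, chr13:58126547-58126567, minus strand: attcatatAAACTgtttaaaa

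m6A was lower after METTL3 inhibition at most hnRNP sites, and 1 site in the 3′ UTR of Hnrnpa0 kept most of its level. Of the 19 sites, 16 fell after STM2457 and 0 rose (Fisher's exact test, two-sided, Benjamini-Hochberg adjusted over all 6201 sites of the dataset). Over all sites 91.5% fell and 0.323% rose by the same test. The hnRNP sites had a median of 56.3% in DMSO, which became 10.5% with STM2457, beside 51.9% and 10.5% over all sites. Their median relative decrease was 82.5%, beside 79.9%. With calls summed over the 19 sites, the level was 55.9% (interval 54.3 to 57.4) of 3940 calls in DMSO and 13.9% (12.7 to 15) of 3486 in STM2457. With 1 library per condition the test compares these libraries, and sites of 1 gene share reads.

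The sites were unevenly spread over the genes. Hnrnpa0 held 9, Hnrnpf 5, Hnrnpu 2, and Hnrnpa1, Hnrnpab and Hnrnpk 1 each. Hnrnpa2b1, Hnrnpc and Hnrnpd held 0. In all, 17 of the 19 (89.5%) were in a DRACH sequence, beside 88.6% of all sites. The coding sequence held 8 sites (42.1%, beside 31.7% of all sites), which were those of Hnrnpf and 3 of Hnrnpa0, and the other 11 were in 3′ UTRs. The median DMSO level was 50.1% in coding sites and 78.0% in 3′ UTR sites, where all sites had 51.8% and 52.2%. The 3′ UTR value rested on Hnrnpa0, which held 6 of the 11, as the other 5 had a median of 50%. Of these other 5, 2 fell. The site nearest above the 25% threshold was Hnrnpf base 809 at 25.5%, and the DRACH position nearest below it was Hnrnpf base 775, at 22.8% of 509 calls.

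**Figure D1:**
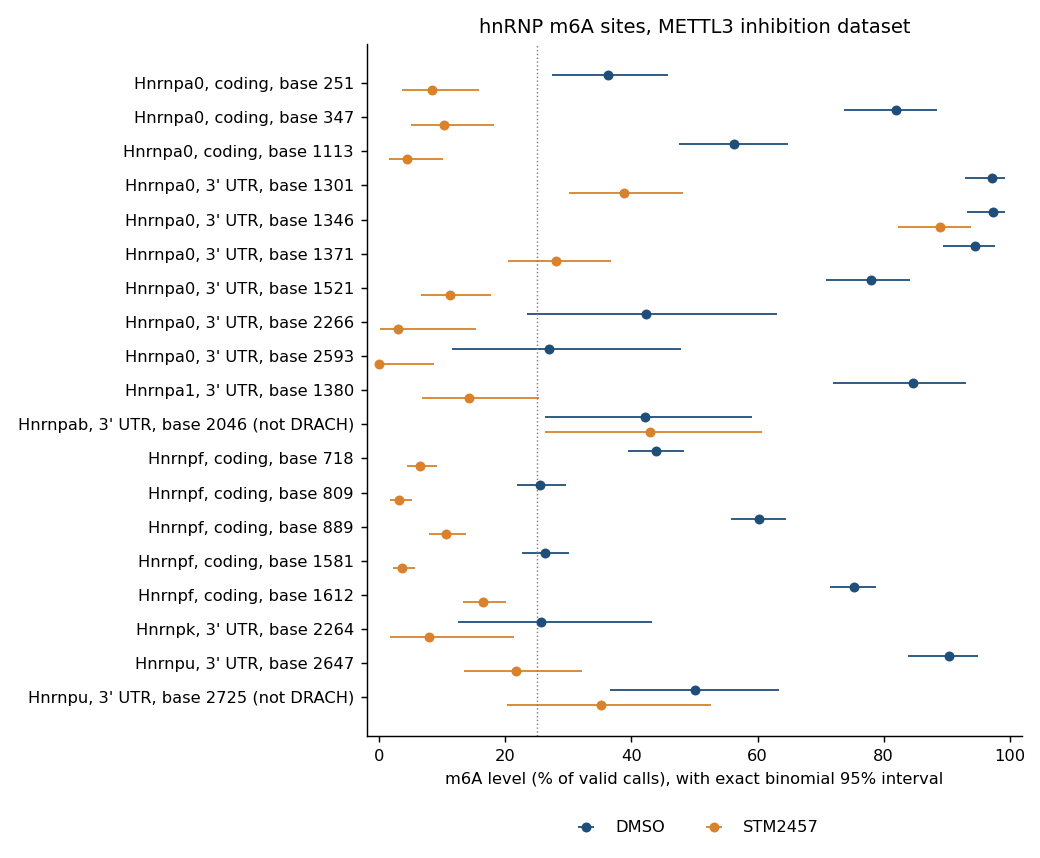
m6A level at each of the 19 hnRNP sites in the DMSO and STM2457 libraries (x axis, % of valid calls), with exact binomial 95% intervals as bars and the 25% threshold as a dotted line. Sites are named by gene, region and base of the transcript, and Hnrnpa0 base 1346 and the Hnrnpab site are those whose 2 values lie closest together relative to their DMSO level.

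Hnrnpa0 encodes a small A/B-type hnRNP that binds AU-rich elements in 3′ UTRs. In DMSO its covered DRACH positions had the highest summed level among the listed genes, whose covered regions differed. The gene is a single exon at chr13:58125879-58128556, minus strand (ENSMUSG00000007836.6). Summed over its covered DRACH positions, the level was 40.2% in DMSO (interval 38.0 to 42.3) and 12.5% in STM2457 (11 to 14). In the coding sequence the highest site, base 347, was at 81.9% of 116 calls in DMSO and 10.3% of 97 in STM2457. The other 2 coding sites went from 36.3% to 8.33% and from 56.3% to 4.46%. All 3 coding sites fell, by 77.0% to 92.1% of their DMSO level.

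Just behind the stop codon of Hnrnpa0, 3 sites within 71 bases lay between 94.5% and 97.3% in DMSO, and 1 of them stood above the others after STM2457. Base 1301 was at 97.1% of 140 calls in DMSO and 38.8% of 121 in STM2457. Base 1346 was at 97.3% of 147 calls in DMSO (interval 93.2 to 99.3) and 89.0% of 127 in STM2457 (82.2 to 93.8). Base 1371 was at 94.5% of 146 calls in DMSO and 28% of 125 in STM2457. The 3 DMSO intervals overlapped, while in STM2457 the interval of base 1346 lay above those of both neighbours. Its relative decrease was 8.53%, against 60.0% and 70.4% for the neighbours 45 bases before and 25 bases after it. It still passed the test for a fall (Fisher's exact test, Benjamini-Hochberg adjusted p = 0.00777), but not with a Bonferroni correction, under which bases 2266 and 2593 did not pass either. As the sequences above show, bases 1301 and 1346 have the same 5 bases, GGACT, around the called A. Only 2.65% of the calls at base 1346 in DMSO failed the filter.

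Further along the 3′ UTR of Hnrnpa0, base 1521 was at 78.0% of 164 calls in DMSO and 11.3% of 142 in STM2457. Past a drop in coverage, base 2266 was at 42.3% of 26 calls and then 2.94% of 34, and base 2593 was at 26.9% of 26 calls and then 0% of 41, an interval up to 8.60%. All 3 fell, the last with an adjusted p of 0.000989 by Fisher's exact test. Of the 9 Hnrnpa0 sites, base 1346 was the only one with a relative decrease under 60%.

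**Figure D2:**
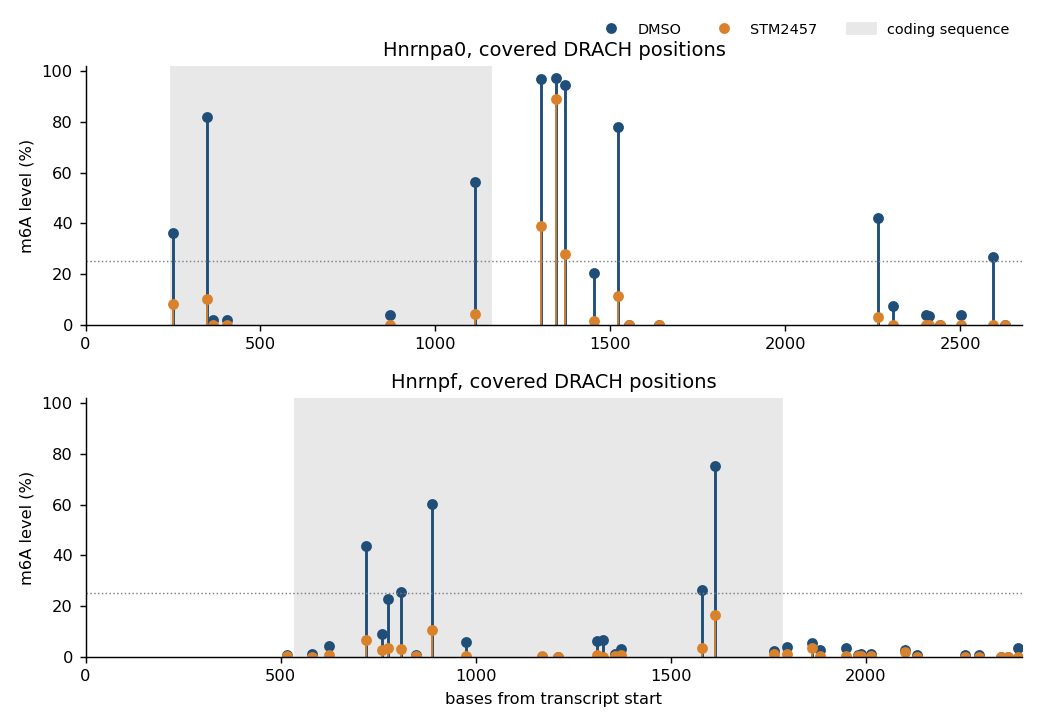
m6A level (y axis, %) of every covered DRACH position along the transcripts of Hnrnpa0 and Hnrnpf (x axis, bases from transcript start), in DMSO and STM2457, with the coding sequence shaded. The sites of Hnrnpa0 run through the coding sequence and gather behind its end, where base 1346 stays at 89.0% after STM2457, while those of Hnrnpf lie in the coding sequence and are all at 16.5% or less after STM2457.

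Hnrnpa1 encodes a much studied splicing regulator and lies at chr15:103240432-103246692, plus strand (ENSMUSG00000046434.16). It was covered in its 3′ UTR only. Its site at base 1380 was at 84.6% of 52 calls in DMSO and 14.3% of 63 in STM2457, a fall of 83.1% of the DMSO level (adjusted p = 8.86e-14, Fisher's exact test). The level of all its covered DRACH positions together was 6.90% in DMSO and 1.15% in STM2457, so a single position stood far above the rest of the covered 3′ UTR.

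Hnrnpa2b1 (chr6:51460932-51469894, minus strand, ENSMUSG00000004980.16) is the hnRNP best known as a proposed m6A reader, and its own mRNA showed almost no m6A at its covered DRACH positions. The 22 covered DRACH positions reached at most 1.46% in DMSO, and together they were at 0.275% (interval 0.154 to 0.453) in DMSO and 0.144% in STM2457. The median coverage of its positions was 264 in DMSO and 361 in STM2457, deeper than for Hnrnpa0. All 22 lay within 100 bases of an exon junction, and only 3 of its 311 covered positions were in the 3′ UTR, so most of the 3′ UTR was not measured.

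Hnrnpab and Hnrnpd encode related AU-rich RNA-binding proteins of the A/B type. In Hnrnpab (chr11:51600100-51606847, minus strand, ENSMUSG00000020358.17), 28 DRACH positions reached at most 12.3% in DMSO. Its 1 called site, base 2046, lay outside a DRACH sequence, at 42.1% of 38 calls in DMSO (interval 26.3 to 59.2) and 42.9% of 35 in STM2457 (26.3 to 60.6). The difference did not pass the test (adjusted p = 1, Fisher's exact test), and the intervals allow a change in either direction. At this position 56.3% of calls in DMSO and 39.7% in STM2457 failed the confidence filter. Its 21 bases also occur in transcripts of 234 other genes on the same strand and 244 on the opposite strand, and whether reads from elsewhere align there was not tested. Hnrnpd (chr5:99955935-99978938, minus strand, ENSMUSG00000000568.15) had 2 covered DRACH positions, both at 0% in both libraries.

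Hnrnpc (chr14:52073377-52104028, minus strand, ENSMUSG00000060373.15) encodes a protein that binds uridine tracts in nascent transcripts. It held no site among 35 DRACH positions, with a highest DMSO level of 14.6% of 48 calls, at base 1535 of the 3′ UTR. That position was at 3.33% of 30 calls in STM2457. The DRACH level of the gene as a whole was 1.42% in DMSO and 0.493% in STM2457.

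Hnrnpf encodes a protein that binds G-rich RNA through its quasi-RRM domains and lies at chr6:117900324-117925622, plus strand (ENSMUSG00000042079.13). Its 5 sites were all in the coding sequence, within the long exon 3, from 228 to 1122 bases from the nearest junction. The highest, base 1612, was at 75.3% of 546 calls in DMSO and 16.5% of 497 in STM2457. Base 889 was at 60.2% of 515 calls in DMSO and 10.5% of 456 in STM2457. The other 3 ranged from 25.5% to 43.8% in DMSO and from 3.12% to 6.44% with STM2457. All 5 fell, by 78.1% to 87.8% of the DMSO level, and with 504 to 549 calls per site in DMSO they were the most deeply covered of the family. The adjusted p at base 1612 was 1.97e-83 (Fisher's exact test). These 21-base sequences also occur among 6 processed pseudogenes (Gm11793, Gm12435, Gm14970, Gm6430, Gm7446 and Gm7803), on which 0 positions were covered. Whether reads of these copies were aligned to Hnrnpf was not tested.

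Hnrnpk encodes a KH-domain protein that binds C-rich RNA and lies at chr13:58391142-58403343, minus strand (ENSMUSG00000021546.18). Its 3′ UTR site, base 2264, was at 25.7% of 35 calls in DMSO (interval 12.5 to 43.3) and 7.89% of 38 in STM2457. This difference did not pass the test (adjusted p = 0.0627, Fisher's exact test). No other of the 36 covered DRACH positions of Hnrnpk reached 25%.

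Hnrnpu, whose product is the nuclear scaffold protein also called SAF-A, lies at chr1:178321108-178337797, minus strand (ENSMUSG00000039630.10). Base 2647, which is 19 bases past the coding end, was at 90.4% of 125 calls in DMSO and 21.7% of 83 in STM2457. It fell by 76.0% of the DMSO level (adjusted p = 1.25e-23, Fisher's exact test). Base 2725, in CAAGA and so outside DRACH, was at 50% of 58 calls in DMSO and 35.1% of 37 in STM2457. It did not pass Fisher's exact test (adjusted p = 0.215). The failed calls there were 53.6% in DMSO and 58.9% in STM2457. The other covered DRACH positions of Hnrnpu were lower, the highest of them being base 354 of the coding sequence at 22.7% of 119 calls in DMSO.

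Under the rule that a site keeps its level if its relative decrease is under 25%, 2 of the 19 sites kept it, Hnrnpa0 base 1346 and Hnrnpab base 2046 (10.5%, beside 4.38% of all sites at 25% or more in DMSO). A level of 25% or more remained after STM2457 at 5 of the 19 (26.3%, beside 20.9%). These were the 3 clustered Hnrnpa0 sites and the 2 sites outside DRACH. All 5 were in 3′ UTRs and none in the coding sequence. With counts this small, neither share is read as a property of the family.

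Across the DRACH positions with more than 25 calls in both libraries, the hnRNP genes differed by how far these positions were from an exon junction. Within 100 bases of a junction, 1 of 97 positions was a site (1.03%, beside 2.05% over all genes). From 100 to under 400 bases, 4 of 40 were sites (10%, beside 23.8%), and at 400 bases or more 3 of 94 (3.19%, beside 17.1%). In the intronless Hnrnpa0, 9 of 21 were sites (42.9%, beside 20.5% over all genes without a junction). In the Mettl5 dataset, where its coding sequence was not covered, 4 of 23 were sites (17.4%, beside 16.5%). The 1 site near a junction was Hnrnpu base 2647, which was 71 bases from it. The positions near junctions included all 22 of Hnrnpa2b1 and 42 of 60 of Hnrnpu, so gene and distance cannot be told apart within the family.

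**Figure D3:**
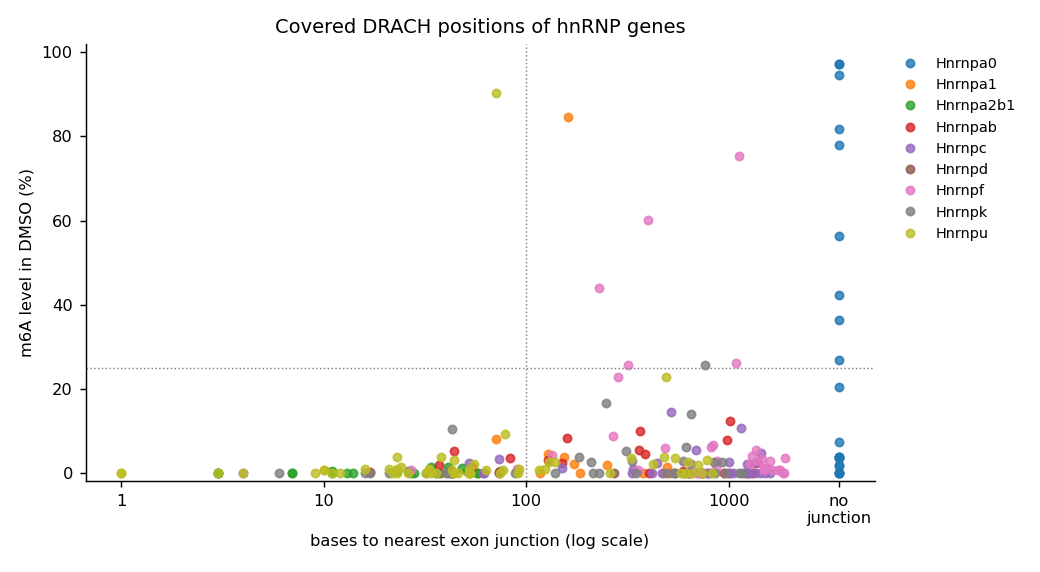
m6A level in DMSO (y axis, %) of the 252 covered DRACH positions of 9 hnRNP genes against the distance to the nearest exon junction (x axis, bases, log scale), with the intronless Hnrnpa0 at the right. A dotted line marks 100 bases and another 25%, and to the left of 100 bases a single position, of Hnrnpu, lies above 25%.

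Of the 19 further hnRNP and related genes on a list set for comparison, 6 held 22 sites in the METTL3 inhibition dataset. After STM2457, 19 of the 22 fell and 0 rose, beside 91.5% and 0.323% of all sites. The median of these 22 was 46.9% in DMSO, which became 10.3% with STM2457, and the median relative decrease was 80.1%. By the rule above, 3 of the 22 kept their level (13.6%, beside 4.38% of all sites at 25% or more in DMSO). A level of 25% or more remained after STM2457 at 5 of the 22 (22.7%, beside 20.9%). Pcbp1, an intronless gene for a KH-domain protein, held 8 sites, 7 of them coding, with a median of 46.9% in DMSO and 5.86% in STM2457. Its highest site after STM2457 was at 77.7%, and its highest DRACH position at 75.9%. Tardbp, the gene of TDP-43, held 8 sites, all in the 3′ UTR, at a median of 52.6% and 14%, with a highest of 62.5% after STM2457. Hnrnpm held 3, at a median of 34.7% and 12.5%. Ptbp1 held 0 among 48 covered DRACH positions.

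In the Mettl5 dataset no hnRNP site was called different from WT. The 15 sites were on Hnrnpa0 (4), Hnrnpf (4), Hnrnpu (3), Hnrnpk (2), Hnrnpa1 (1) and Hnrnpa2b1 (1), with 12 of 15 in DRACH. Fisher's exact test with Benjamini-Hochberg adjustment over all 1886 sites called 0 of 15 in clone 1 and 0 of 15 in clone 2, beside 0.53% and 0.583% of all sites, and 0.265% in both clones in the same direction. At an unadjusted p under 0.05 there were 2 sites in clone 1 and 3 in clone 2, beside 6.79% and 7.95% of all sites. Of these, 2 sites passed in both clones in the same direction, beside 2.44% of all sites. Calls summed over the 15 sites gave 44.9% (interval 42.5 to 47.3) of 1737 in WT, 47.7% (45.3 to 50.1) in clone 1 and 46.3% (44.0 to 48.7) in clone 2. The mean of the clones was 47.0% ± 0.988 (SD, n = 2), or 2.10 percentage points above WT, and over all sites it was 47.6% against 44.0%. The intervals of all 3 libraries overlapped at the hnRNP sites.

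The 3 highest sites had the same order in WT and both clones. Hnrnpu base 2647 was at 83.0% of 159 calls in WT, 87.3% of 134 in clone 1 and 89.3% of 103 in clone 2. Hnrnpa0 base 1521 was at 71.9% of 89 calls in WT, 79.2% of 101 in clone 1 and 84.0% of 81 in clone 2. Hnrnpf base 1612 was at 66.8% of 256 calls in WT, 71.9% of 231 in clone 1 and 67.3% of 294 in clone 2. In these 3 sites the clones were slightly above WT and none of the differences passed the test. Of the 15 hnRNP sites, 6 were higher than WT in both clones and 3 lower in both, beside 850 and 439 of all 1886 sites. Hnrnpa1 base 1380, at 57.1% of 35 calls in WT, was at 60.0% of 40 in clone 1 and 66.7% of 27 in clone 2.

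Of the 3 sites with the largest difference shared by both clones, 2 were lower and 1 higher than WT. Hnrnpa0 base 2000, in AAACT, was at 33.3% of 39 calls in WT, 10% of 60 in clone 1 and 12.5% of 56 in clone 2. The log2 fold change was -1.74 and -1.42, with p = 0.00772 and 0.0208 before adjustment and 0.394 and 0.421 after it by Fisher's exact test. With the calls of both clones summed, the adjusted p was 0.161. Hnrnpf base 889 was at 50% of 246 calls in WT, 61.8% of 220 in clone 1 and 62.9% of 272 in clone 2. The adjusted p was 0.442 and 0.253, and 0.11 with the clones summed, all by Fisher's exact test. Hnrnpu base 3402, in a run of A and outside DRACH, was at 29.5% of 61 calls in WT, 22% of 50 in clone 1 and 5.71% of 35 in clone 2. There 39.6% of calls in WT failed the filter, and the adjusted p was 0.965 and 0.309 (Fisher's exact test).

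Of the remaining sites, Hnrnpa2b1 base 1002, a coding position in CTATG 8 bases from a junction, was the only site of that gene in either dataset. It was at 21.3% of 89 calls in WT, 26.6% of 124 in clone 1 and 19.8% of 101 in clone 2, with 27.0% failed calls in WT. The 2 Hnrnpk sites lay between 13% and 31.3% over the 3 libraries and reached 25% in 1 clone each, base 2093 in clone 1 and base 2150 in clone 2. The coding sequence of Hnrnpa0 and its 3 clustered 3′ UTR sites were not covered in this dataset. Among the other hnRNP genes 25 sites were covered, and 0 were called in either clone, with 1 and 2 at an unadjusted p under 0.05 by Fisher's exact test, beside the same 6.79% and 7.95% of all sites.

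**Figure D4:**
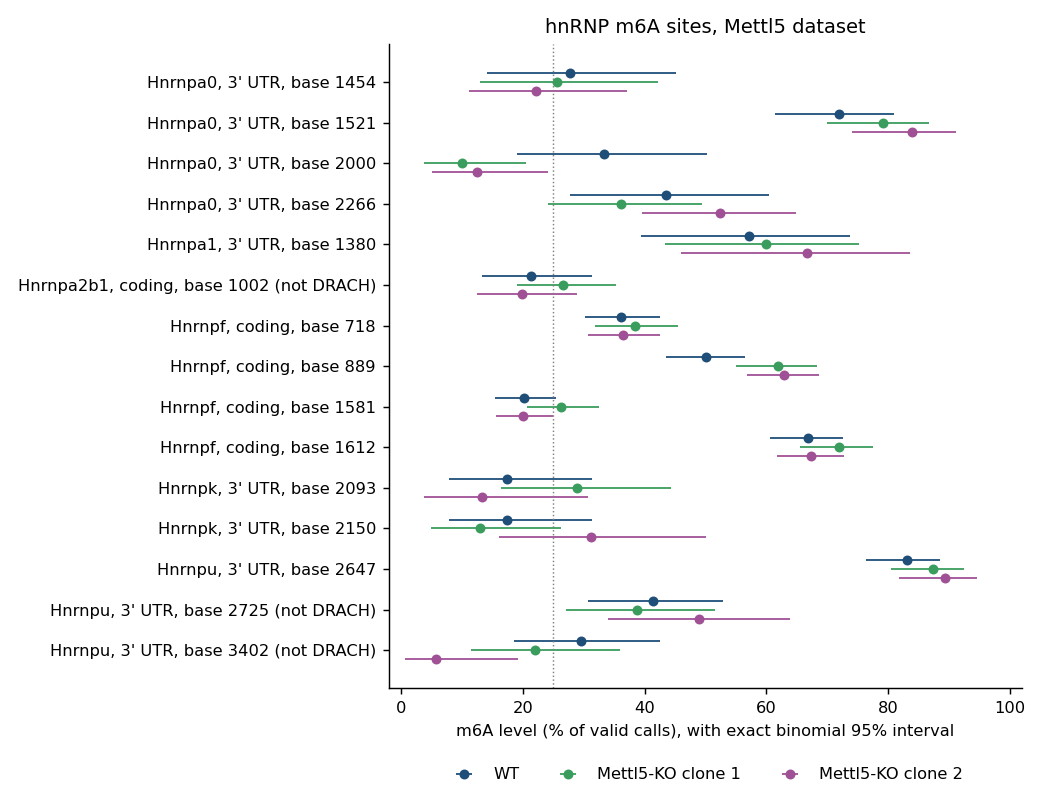
m6A level at each of the 15 hnRNP sites of the Mettl5 dataset (x axis, % of valid calls) in WT and the 2 Mettl5-KO clones, with exact binomial 95% intervals as bars and a dotted line at 25%. The intervals of the 3 libraries overlap at most sites. At Hnrnpf base 889 the interval of clone 2 (56.8 to 68.6) lies above that of WT (43.6 to 56.4). Hnrnpa0 base 2000 shows both clones below WT, at 10% and 12.5% against 33.3%, with overlapping intervals.

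At 9 positions that were hnRNP sites in both datasets, the untreated libraries could be set side by side. WT was lower than DMSO at 8 of 9, beside 1011 of all 1215 shared sites. The median difference was -7.67 percentage points, beside -7.88 over all shared sites. By Fisher's exact test with Benjamini-Hochberg adjustment 0 of the 9 were called, beside 8.48% called lower and 0.247% called higher of all shared sites, and 4 had an unadjusted p under 0.05, beside 26.2% of all shared sites. The largest difference was at Hnrnpa1 base 1380, at 84.6% in DMSO and 57.1% in WT (adjusted p = 0.0618, Fisher's exact test).

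Read depth was compared as valid calls on the covered positions of a gene divided by all valid calls of the library, as a description without a test. After STM2457 the ratio to DMSO was 1.85 for Hnrnpa2b1, 1.70 for Hnrnpa1 and 1.44 for Hnrnpk, where the median over 2318 genes was 1.08. Hnrnpa2b1 and Hnrnpa1 were at percentiles 94.8 and 92.6 of all genes. The lowest ratio was 0.854, for Hnrnpd, and Hnrnpa0 and Hnrnpf were both at 1.20. The highest ratio was that of Hnrnpa2b1, which had no site in this dataset, but only 3 of its 311 covered positions were in the 3′ UTR. Whether depth and m6A were related was not tested. In the clones against WT, Hnrnpa0 was at 1.85 and 1.53 and Hnrnpab at 0.760 and 0.591, where the medians over 834 genes were 1.09 and 1.12. Hnrnpa1 and Hnrnpk were above 1 in clone 1 and below 1 in clone 2. The clone ratios of Hnrnpa0 rested on 311 positions, all of them in its 3′ UTR. Before scaling, the median coverage of its bases 1401 to 1600 was 87 for WT, against 101 and 81 for the clones. For bases 2001 to 2200 it was 35, against 58 and 55, and for bases 2601 to 2800 it was 41.5, against 54.5 and 27. These ratios thus differed along the 3′ UTR and do not describe the whole Hnrnpa0 mRNA. In bulk RNA, fewer cells that express a gene and less RNA per cell cannot be told apart, and with 1 library per condition the spread between cultures is not known.

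**Figure D5:**
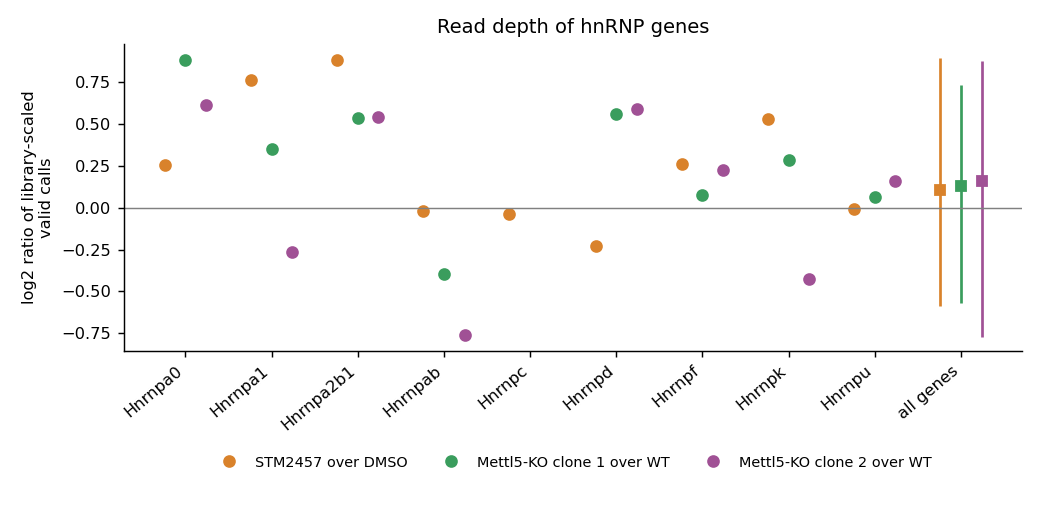
Log2 ratio of library-scaled valid calls (y axis) for each hnRNP gene with at least 50 covered positions, in STM2457 over DMSO and in each Mettl5-KO clone over the shared WT library, with squares for the median over all genes and bars from the 5th to the 95th percentile of genes. Hnrnpa2b1 lies above the median in all 3 comparisons, and Hnrnpab below it in all 3.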

How the data were processed

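The files hold nanopore direct RNA sequencing from adapters ligated at poly(A) tails, which favours the 3′ end of transcripts. The authors called bases and modifications with dorado 1.4.0, aligned reads to mm10, and deposited counts of valid, m6A, unmodified, failed and other calls per position and strand from modkit 0.4.4. They also deposited the percent of m6A calls among valid calls, from which low-confidence calls are left out. The lowest deposited coverage was 25.

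Here the level was recomputed from the deposited counts as m6A over valid calls. Positions were assigned to exons of all GENCODE M21 transcripts on the call strand, and sequences were read from those transcripts, which had an A at 99.8% of positions and another base at 1 hnRNP position. Each site's calls were compared by a two-sided Fisher's exact test, p-values were adjusted by Benjamini-Hochberg across every site in that dataset, and the threshold was 0.05 (scipy 1.17.1 and pandas 2.3.3 under Python 3.11.15). The test was tried on simulated data with known answers. These were drawn without spread between cultures, so the trial says nothing about such spread. A clone difference was called if both clones passed in the same direction. The counts of failed calls entered an alternative. Groups came from the sample labels. No per-sample column was left without a sample.

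Named in full were, for each gene, the site with the highest DMSO level in the coding sequence and in the 3′ UTR, sites with a relative decrease under 25%, sites called higher after STM2457 or called in a clone, the 3 sites with the largest difference shared by both clones, and the 3 other hnRNP genes with the most sites. Further sites named in the text were chosen after their values were seen. The genes, lists and rules were chosen with earlier results of these data known. The total valid calls per library set the precision of depth ratios, and the calls at a site that of its level.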

Additional observations from a re-analysis of the deposited data

Results flagged for a closer look

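The pileups also count calls of modifications other than m6A, which none of the comparisons use. On hnRNP genes these made up between 0.392% and 0.588% of valid calls in the 5 libraries. Over all positions they made up between 0.417% and 0.778%, and in every library this share was above that of the hnRNP genes. They reached 25% or more in every library at 4 of 4020 hnRNP positions of the METTL3 inhibition dataset. In the Mettl5 dataset this was 1 of 3147, a position among those 4. The share of all positions at 25% or more was not computed, so these counts are not read as a trait of the family. Hnrnpab position 51604778, in the coding sequence of exon 4 (TCATT), had other calls at 38.9% of 293 valid calls in DMSO and 28.4% of 215 in STM2457. The same position had 44.9% of 185 in WT, 44.9% of 118 in Mettl5-KO clone 1 and 43.3% of 104 in clone 2. In the 3′ UTR of Hnrnpab, position 51600115 had 51.5% of 33 in DMSO and 43.3% of 30 in STM2457, and position 51600918 had 33.0% of 321 in DMSO and 38.9% of 252 in STM2457. Hnrnpa0 position 58127198, in the 3′ UTR, had 25% of 96 in DMSO and 42.9% of 63 in STM2457. All 4 lay outside DRACH, had an m6A level of 1.08% or less, and their cause was not tested.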

How the results depend on the processing

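Site counts and summed levels moved with the thresholds. Sites that fell after STM2457 were 16 of 19, but 25 of 79 at a level of 10% or more and 10 of 11 at 50% or more. The shares over all sites were not computed at these 2 levels. At the 10% level 1 site rose, Hnrnpc position 52075397 in the coding sequence, from 0% of 72 calls to 10% of 50 (adjusted p = 0.0211, Fisher's exact test). The number of sites keeping their level was 1 with a coverage of at least 50, a level of 50%, failed calls in the denominator, or DRACH alone, and 5 by 25% or more in both libraries. Coding sites numbered 34 at the 10% level and 4 at 50%, and 3′ UTR sites 45 and 7, or 6 with a coverage of at least 50. The summed relative decrease was 64.8% at the 10% level, 71.9% at 50%, 68.7% as a mean of site levels and 32.3% over all covered positions. The clones exceeded WT by 3.57 percentage points with a coverage of at least 50, 0.0921 at the 10% level, 5.17 at 50% and 0.00197 over all covered positions. With either clone left out the difference was between 1.41 and 2.80 points. Between DMSO and WT, 1 site was called with a coverage of at least 50 (Hnrnpf base 889) and 2 with failed calls in the denominator (Hnrnpf base 889 and Hnrnpa1 base 1380). The family depth ratio of STM2457 to DMSO turned from 1.18 to 0.970 by median coverage. For clone 1 it was 1.06 with failed calls and 1.18 by median coverage, for clone 2 1.06 and 1.04. With a Bonferroni correction 3 Hnrnpa0 sites (bases 1346, 2266 and 2593) no longer passed, and 13 of 16 did. Of the other single-site values, 295 kept their side of the threshold and their direction. Only failed calls in the denominator altered the level of a site, so under the other settings its direction could not change. No paired analysis was possible because WT, DMSO and STM2457 have 1 library each and the replicate numbers pair no samples. The cause of these moves was not tested. At sites with fewer than 50 calls a small change was not detectable at this depth.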

Other observations

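Coverage of the long 3′ UTRs fell in steps, at windows chosen after seeing the coverage. In Hnrnpa0 the median coverage of bases 2401 to 2600 was 17.6% of that of bases 1501 to 1600 in DMSO and 28.1% in STM2457. In the Mettl5 dataset WT had 42.7%, clone 1 had 56.3% and clone 2 had 69.5%. In Hnrnpu, bases 3001 to 3200 were at 44.0% of bases 2801 to 2900 in DMSO and 67.3% in STM2457, and WT had 54.3%, clone 1 had 56.2% and clone 2 had 69.9%. In Hnrnpab, bases 1701 to 2000 were at 15.8% of bases 1401 to 1600 in DMSO and 13.9% in STM2457, and WT had 16.5%, clone 1 had 19.4% and clone 2 had 37.4%. The step was thus shallower in STM2457 than in DMSO for Hnrnpa0 and Hnrnpu but not for Hnrnpab, and shallower in both clones than in WT for all 3. Some far windows lay near the lowest deposited coverage of 25, with a median of 28 for Hnrnpa0 in DMSO and 32 for Hnrnpab in clone 1. Each value rests on 1 library, and the cause of the steps was not tested.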
